A study of Saccharomyces cerevisiae with 12 samples.

Results

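The 52 genes described here encode enzymes of amino acid synthesis in the budding yeast Saccharomyces cerevisiae. They were chosen by name and found through the gene annotation of the array platform, and all 52 had a probe set of their own, of 5656 genes that did. All 52 also passed the filter on dim probe sets, so they are 52 of the 5325 genes tested. The genes were grouped by the precursor of their pathway. In this grouping 15 genes start from oxoglutarate (arginine, lysine, proline), 11 from pyruvate (leucine, isoleucine and valine) and 9 from aspartate (threonine, methionine, asparagine). A further 13 start from pentose phosphate precursors (histidine, the aromatic ring, tryptophan) and 4 from 3-phosphoglycerate (serine). ILV1 was kept with the pyruvate genes although its substrate, threonine, comes from aspartate.

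The study asked how far carbon flux in yeast is set at the level of transcription, with growth limited by glucose, maltose, ethanol or acetate. Each source had 3 numbered arrays, 12 in all, from aerobic chemostats in steady state on defined mineral medium (pH 5, 30 °C, dilution rate 0.1 per hour), so every culture had to make its own amino acids. The wild-type MATa strain CEN.PK113-7D, a laboratory strain, is named for the maltose, ethanol and acetate cultures, and the 3 glucose records, which are older and have a protocol text of their own, name no strain. Record age and glucose cannot be told apart.

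Yeast builds amino acids from a handful of intermediates of central metabolism: oxoglutarate and oxaloacetate from the citric acid cycle, pyruvate and 3-phosphoglycerate from glycolysis, and sugar phosphates with phosphoenolpyruvate for histidine and the aromatic amino acids. On sugars these intermediates are made by breakdown of hexoses. On ethanol or acetate, compounds of 2 carbons (C2 sources), the cell makes most of them, though not oxoglutarate, through the glyoxylate cycle and gluconeogenesis. Many of the genes are targets of Gcn4, the transcription activator of general amino acid control, which binds the promoters of genes in nearly all of these pathways when amino acids run short.

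The values are linear probe set signals on Affymetrix Yeast Genome S98 arrays, on 1 common scale after each array was set to the same 2% trimmed mean. The median signal over the array was 41.8 to 48.5 on 11 arrays and 22.8 on maltose array 2. Actin controls at the 3′ and 5′ end of the RNA gave signals in a ratio of at most 3.31 on 8 arrays, but of 9.27 (ethanol array 2), 14.0 (ethanol array 3), 10.2 (acetate array 2) and 13.1 (acetate array 3) on the rest, a sign of lower RNA or labelling quality. A second control, YER148W, gave 7.33 to 10.1 on those same ethanol and acetate arrays. Its ratio was 5.88 on maltose array 2, 4.87 on acetate array 1 and at most 3.80 elsewhere, a less clean split. Of the genes of a MATa cell, MFA1 and MFA2, the a-factor pheromone genes, were bright, at 926 or more on every array. STE2 and BAR1, also genes of a MATa cell, were much dimmer, at 42.2 to 146.5 and 102.9 to 311.1. Genes of an alpha cell were dim (MF(ALPHA)2 and STE3 at 43.9 or less). The exception was MF(ALPHA)1, which gave 232 on glucose array 1 and at most 41.6 elsewhere. The map of all 52 genes over the 12 arrays shows each signal against the gene's own mean.

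**Figure D1:**
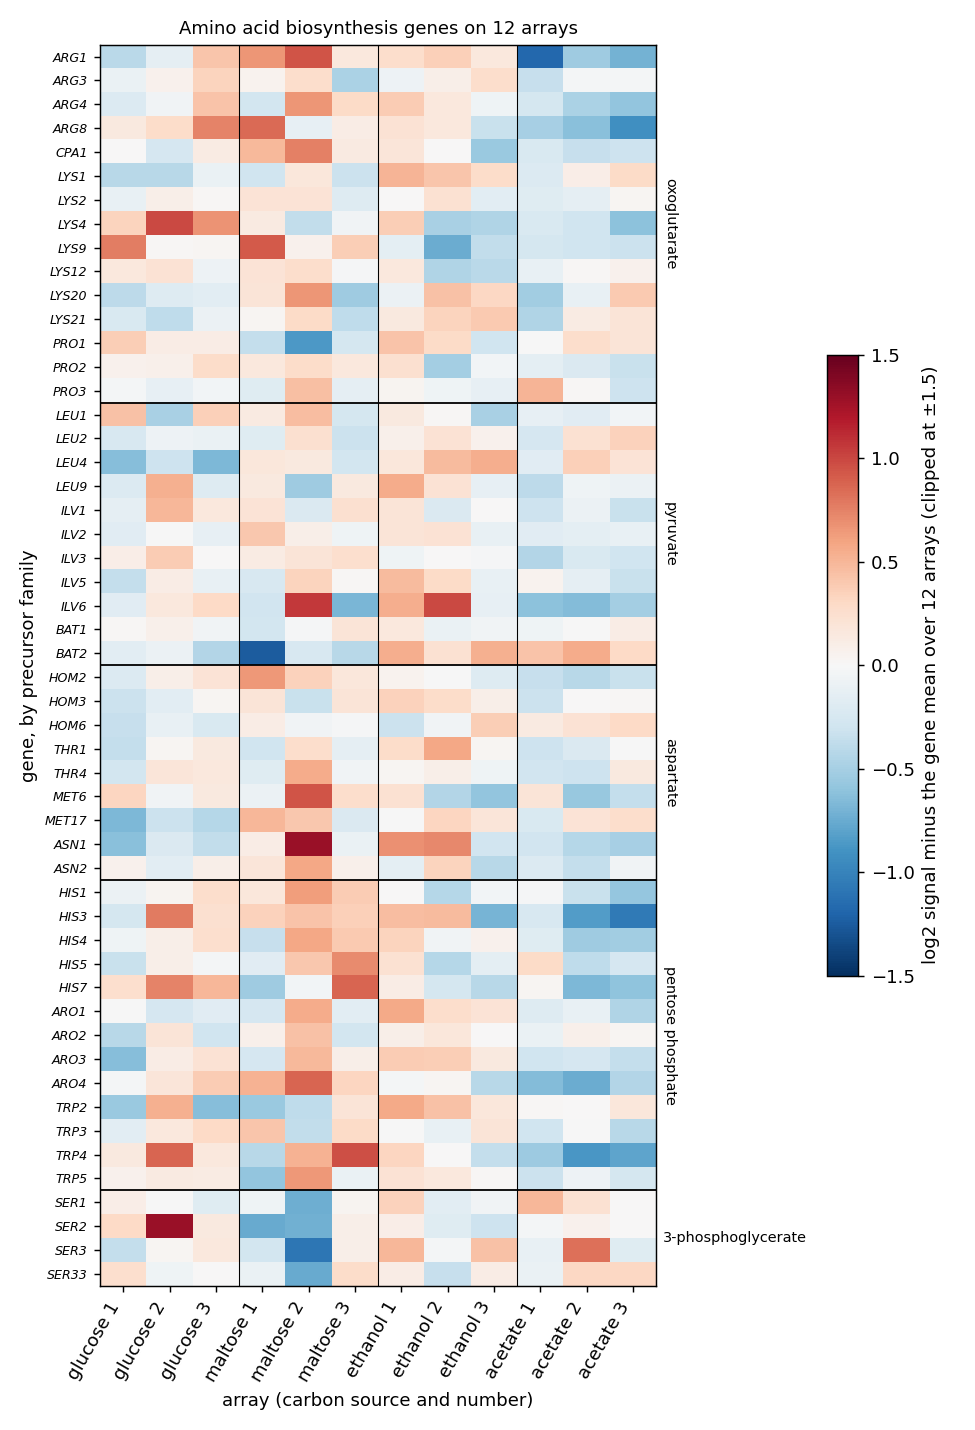
Log2 signal minus the gene's mean over 12 arrays, for 52 amino acid biosynthesis genes (rows, by precursor family) on each array (columns), with blue for lower and red for higher. The median over the genes was −0.22, −0.14 and −0.22 on acetate arrays 1 to 3 and 0.19, 0.12 and −0.05 on ethanol arrays 1 to 3.

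Ethanol and acetate together were first compared with both sugars. Of the 52 genes, 3 were higher on the C2 sources and 8 were lower at an adjusted p under 0.05 (limma, Benjamini-Hochberg over all 7176 probe sets tested), which is 21.2% of the genes against 17.1% of all probe sets. The branched-chain transaminase gene BAT2, the isopropylmalate synthase gene LEU4 and the last gene of lysine synthesis, LYS1, were higher. Those called lower were ARG1 of arginine synthesis, LYS4 and LYS9 of lysine synthesis, ILV3, HOM2, HIS1, ARO4 and TRP4. The changes were small: none reached a log2 change of 1 in either direction. Over all probe sets 11.4% were called higher and 5.69% lower, so the 8 lower genes (of 52) and the 3 higher ones stand against an array on which calls ran mostly upward. The median log2 change was −0.08 over the 52 genes and 0.12 over all probe sets. A quantile normalization took the median of all probe sets from 0.122 to 0.0147 and left that of the genes at −0.072, with 3 called higher and 9 lower.

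The arrays with a high 3′ to 5′ ratio in both controls were 4 of the 6 C2 arrays. With the log2 3′ to 5′ ratio of the control genes as a covariate, 0 of the 52 genes were called higher and 0 lower, and the share of all probe sets called fell from 17.1% to 2.05%. In another fit each C2 source was reduced to its array 1, the one with the lowest ratio of its source, so that these sources had 1 array each. The mean log2 ratio of the control genes was still 1.80 on ethanol array 1 and 1.88 on acetate array 1. It was 1.06 to 1.48 on the glucose arrays and 1.39 to 2.06 on the maltose arrays. In both fits each of the 11 genes kept the sign of its change and had a wider standard error, 1.39 to 1.62 times with the covariate and 1.18 to 1.8 times with array 1 alone. With the covariate the change was at least as large in size for 3 of the 11, ARG1 (log2 −0.83), ILV3 (−0.46) and ARO4 (−0.78), and smaller for the other 8. With array 1 alone it was at least as large for ARG1 (−0.73), ILV3 (−0.43) and BAT2 (0.92), and smaller for the other 8, such as HOM2 (−0.35). The counts also depended on single arrays. The 8 lower calls became 2 or 3 without array 2 or 3 of glucose, ethanol or acetate. The 3 higher calls became 1 without glucose array 1, ethanol array 2, or acetate array 2 or 3. Leaving out glucose arrays 1 and 3 together took the share of all probe sets called from 17.1% to 6.66%. For fits without a single array, here and below, that share is not given, so their counts cannot be read as particular to the 52 genes. The plot of changes in all 52 genes shows how far each stood from 0.

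**Figure D2:**
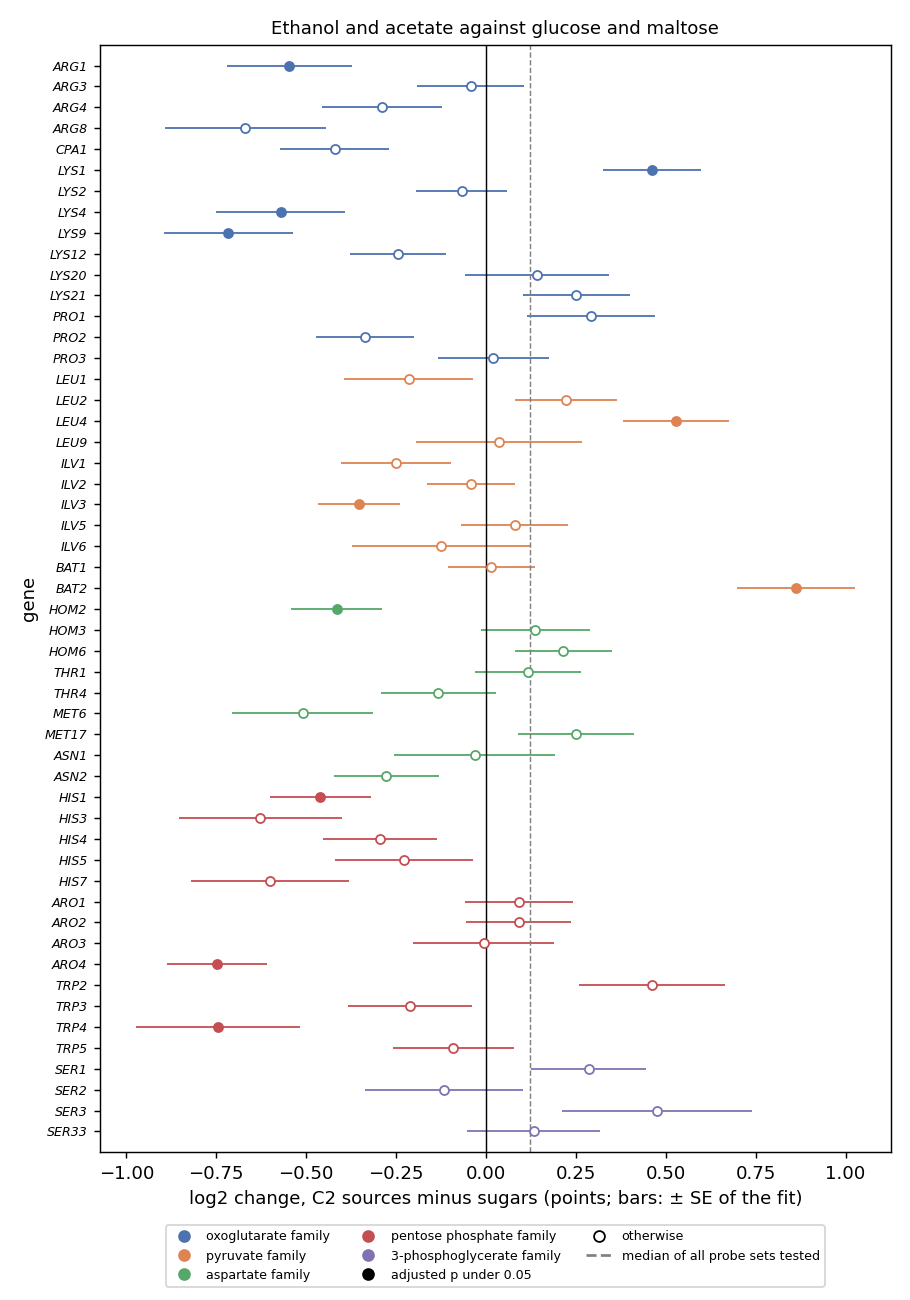
Log2 change of 52 amino acid biosynthesis genes, ethanol and acetate minus glucose and maltose (points, with bars for the standard error of the fit; colours for precursor families; filled points for adjusted p under 0.05). The called genes run from −0.75 for ARO4 and TRP4 to 0.86 for BAT2, and the dashed line marks the median of all probe sets, 0.12.

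In the oxoglutarate family, 1 of 15 genes was higher on the C2 sources, 3 were lower, and the median log2 change was −0.24. In the arginine branch 1 of 5 genes, ARG1, passed the test, and the log2 changes ran from −0.67 to −0.04. ARG1 (YOL058W) encodes argininosuccinate synthetase, which joins citrulline to aspartate. Its signal was 958, 1160.1 and 1696 on glucose arrays 1 to 3, 2009, 2441 and 1411 on maltose, 1519, 1624 and 1419 on ethanol, and 561, 879.5 and 775 on acetate. Every acetate array lay below every other array, and the ethanol arrays lay within the range of the sugars. For the C2 sources together ARG1 was lower by a log2 change of −0.55 ± 0.17 (SE, limma adjusted p = 0.0412), and for acetate against maltose it fell 2.62-fold (log2 −1.39 ± 0.25, limma adjusted p = 0.0021). That last call was kept with the 3′ to 5′ covariate (log2 −1.64, limma adjusted p = 0.005).

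The lysine genes moved in both directions. LYS9 (YNR050C) encodes the saccharopine dehydrogenase that forms saccharopine from aminoadipate semialdehyde and glutamate. Its signal was 518, 307 and 310.0 on glucose, 575, 318 and 394 on maltose, 276, 182 and 235 on ethanol, and 253, 247 and 244 on acetate. All 6 C2 arrays lay below all 6 sugar arrays, and the difference was −0.72 ± 0.18 (log2, SE, limma adjusted p = 0.0131). LYS4 (YDR234W) encodes homoaconitase, a mitochondrial iron-sulfur enzyme of the chain-lengthening steps. It gave 323, 509 and 408 on glucose, 280.1, 198 and 246 on maltose, 329, 183 and 187 on ethanol, and 219, 207 and 167 on acetate. Glucose stood above maltose and acetate, ethanol array 1 reached the glucose arrays, and maltose overlapped both C2 sources. LYS4 was lower by −0.57 ± 0.18 on the C2 sources (limma adjusted p = 0.0389) and by −1.05 ± 0.25 on acetate against glucose (limma adjusted p = 0.024). The first of these log2 changes was −0.11 with the 3′ to 5′ covariate and −0.22 with array 1 alone of ethanol and acetate.

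LYS1 (YIR034C), named here although the rule for named genes left it out, encodes the dehydrogenase that releases lysine from saccharopine. It had 400.5, 400.4 and 498 on glucose, 435, 600.2 and 430 on maltose, 763, 712 and 648 on ethanol, and 466, 573 and 653 on acetate. The 3 ethanol arrays were above all sugar arrays, the acetate arrays overlapped them, and the log2 change for the C2 sources was 0.46 ± 0.14 (limma adjusted p = 0.0294). LYS9 and LYS1 encode consecutive steps, and they were called in opposite directions. The remaining lysine genes, LYS2, LYS12, LYS20 and LYS21, had log2 changes of −0.24 to 0.25 and did not pass. The proline genes PRO1, PRO2 and PRO3 had log2 changes from −0.34 to 0.29, and none passed.

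In the pyruvate family 2 of 11 genes were higher, 1 was lower, and the median log2 change was 0.02. BAT2 (YJR148W) encodes the cytosolic branched-chain aminotransferase, which acts in the synthesis and in the breakdown of leucine, isoleucine and valine. Its signal was 384, 401 and 315 on glucose, 179.8, 360.3 and 321 on maltose, 620.2, 499 and 619 on ethanol, and 576, 628 and 523 on acetate. All 6 C2 arrays exceeded all 6 sugar arrays. BAT2 rose 1.82-fold on the C2 sources (log2 0.86 ± 0.16, limma adjusted p = 0.00258), 2.1-fold on ethanol against maltose (limma adjusted p = 0.0135) and 2.09-fold on acetate against maltose (limma adjusted p = 0.00907). The log2 change for the C2 sources was 0.81 with the 3′ to 5′ covariate and 0.92 with array 1 alone of ethanol and acetate, although neither fit gave a call.

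LEU4 (YNL104C) encodes the main α-isopropylmalate synthase, the first enzyme of the leucine branch and a target of leucine feedback. Its signal was 1598, 2007 and 1558 on glucose, 2791, 2757 and 2050.4 on maltose, 2808, 3449.8 and 3621 on ethanol, and 2203, 3195 and 2874 on acetate. Glucose was lowest on all 3 arrays, while maltose and the C2 sources overlapped. The log2 change was 0.53 ± 0.15 for the C2 sources (limma adjusted p = 0.023) and 0.94 ± 0.21 for ethanol against glucose (limma adjusted p = 0.0266). With the 3′ to 5′ covariate the first of these was 0.16.

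ILV3 (YJR016C), the dihydroxyacid dehydratase of the isoleucine and valine pathway, is another iron-sulfur enzyme of the mitochondrion. It had 983, 1190.0 and 923 on glucose, 996, 1049 and 1089 on maltose, 873, 917 and 905 on ethanol, and 676, 778 and 743 on acetate. The C2 arrays were all below the sugar arrays, with acetate below ethanol, and the log2 change was −0.35 ± 0.11 (limma adjusted p = 0.0427). ILV1, ILV2, ILV5, ILV6, LEU1, LEU9 and BAT1 ranged from −0.25 to 0.08 and did not pass. LEU2, the isopropylmalate dehydrogenase gene, had 3 probe sets that disagreed. The brightest gave a log2 change of 0.22 that was not called (limma adjusted p = 0.288), and the other 2 were called lower, at −1.27 (limma adjusted p = 0.0299) and −0.60 (limma adjusted p = 0.0427). On both of these, arrays 2 and 3 of ethanol and acetate, those with the high 3′ to 5′ ratio, were dimmer than array 1 of the same source. The ethanol arrays 2 and 3 of the first gave 57.5 and 60.1 against 228 on array 1. That probe set also gave 105 and 165 on maltose arrays 1 and 2, below ethanol array 1 and acetate array 1 (195), and 437 on maltose array 3. The cause of the disagreement was not tested.

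In the aspartate family only HOM2 of the 9 genes was called, lower, and the median log2 change was −0.03. HOM2 (YDR158W) encodes aspartate semialdehyde dehydrogenase, the second step on the shared path to threonine and methionine. It gave 419.7, 515 and 557 on glucose, 757, 614 and 545 on maltose, 502, 481 and 424 on ethanol, and 382, 363 and 383 on acetate. Acetate lay below all other arrays, and ethanol overlapped glucose. The log2 change was −0.42 ± 0.13 for the C2 sources (limma adjusted p = 0.0345) and −0.75 ± 0.18 for acetate against maltose (limma adjusted p = 0.0154). The aspartokinase gene HOM3, the homoserine dehydrogenase gene HOM6, THR1, THR4, MET6, MET17, ASN1 and ASN2 had log2 changes of −0.51 to 0.25 and were not called.

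The pentose phosphate family had 3 of 13 genes called, all lower, 0 higher, and a median log2 change of −0.23. ARO4 (YBR249C) encodes the tyrosine-inhibited DAHP synthase, which opens the aromatic pathway by joining erythrose 4-phosphate to phosphoenolpyruvate. Its signal was 549, 634 and 733 on glucose, 804, 1024 and 704 on maltose, 549.5, 574 and 419 on ethanol, and 359, 336 and 413 on acetate. The acetate arrays were all below the sugar arrays and the ethanol arrays overlapped those of glucose. ARO4 fell 1.68-fold on the C2 sources (log2 −0.75 ± 0.14, limma adjusted p = 0.00215). It fell also on acetate against glucose (log2 −0.79 ± 0.20, limma adjusted p = 0.0281), on ethanol against maltose (log2 −0.71 ± 0.20, limma adjusted p = 0.0436) and on acetate against maltose (log2 −1.18 ± 0.20, limma adjusted p = 0.00129). The log2 change for the C2 sources was −0.78 with the 3′ to 5′ covariate and −0.71 with array 1 alone of ethanol and acetate. The other DAHP synthase gene, ARO3, whose enzyme is inhibited by phenylalanine, had a log2 change of −0.01 ± 0.20.

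TRP4 (YDR354W) encodes anthranilate phosphoribosyltransferase, which brings the ribose carbons into tryptophan. It had 173, 287 and 174 on glucose, 118, 225 and 306 on maltose, 196, 158 and 123 on ethanol, and 107, 85.8 and 90.4 on acetate. The acetate arrays were the lowest, while ethanol overlapped both sugars, and the log2 change was −0.75 ± 0.23 for the C2 sources (limma adjusted p = 0.0346) and −1.09 ± 0.32 for acetate against maltose (limma adjusted p = 0.0404). HIS1 (YER055C), whose product ATP phosphoribosyltransferase starts histidine synthesis and is inhibited by histidine, gave 674, 736 and 859.5 on glucose, 804, 1106 and 934 on maltose, 719, 535 and 699 on ethanol, and 708, 568 and 481 on acetate. Maltose was above both C2 sources and glucose overlapped them, with a log2 change of −0.46 ± 0.14 (limma adjusted p = 0.0344). All 5 histidine genes had a negative log2 change (−0.63 to −0.23), of which HIS1 was called. TRP2, an anthranilate synthase gene, was the member of the family with the most positive log2 change, 0.46, and did not pass.

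Of the 4 serine genes 0 were called (limma), 0 in each direction, with log2 changes of −0.12 to 0.48 and a median of 0.21. SER2, the phosphoserine phosphatase gene, gave 322 on glucose array 2 against 161 and 144 on the other glucose arrays. The plot of signals by array sets the 11 called genes side by side.

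**Figure D3:**
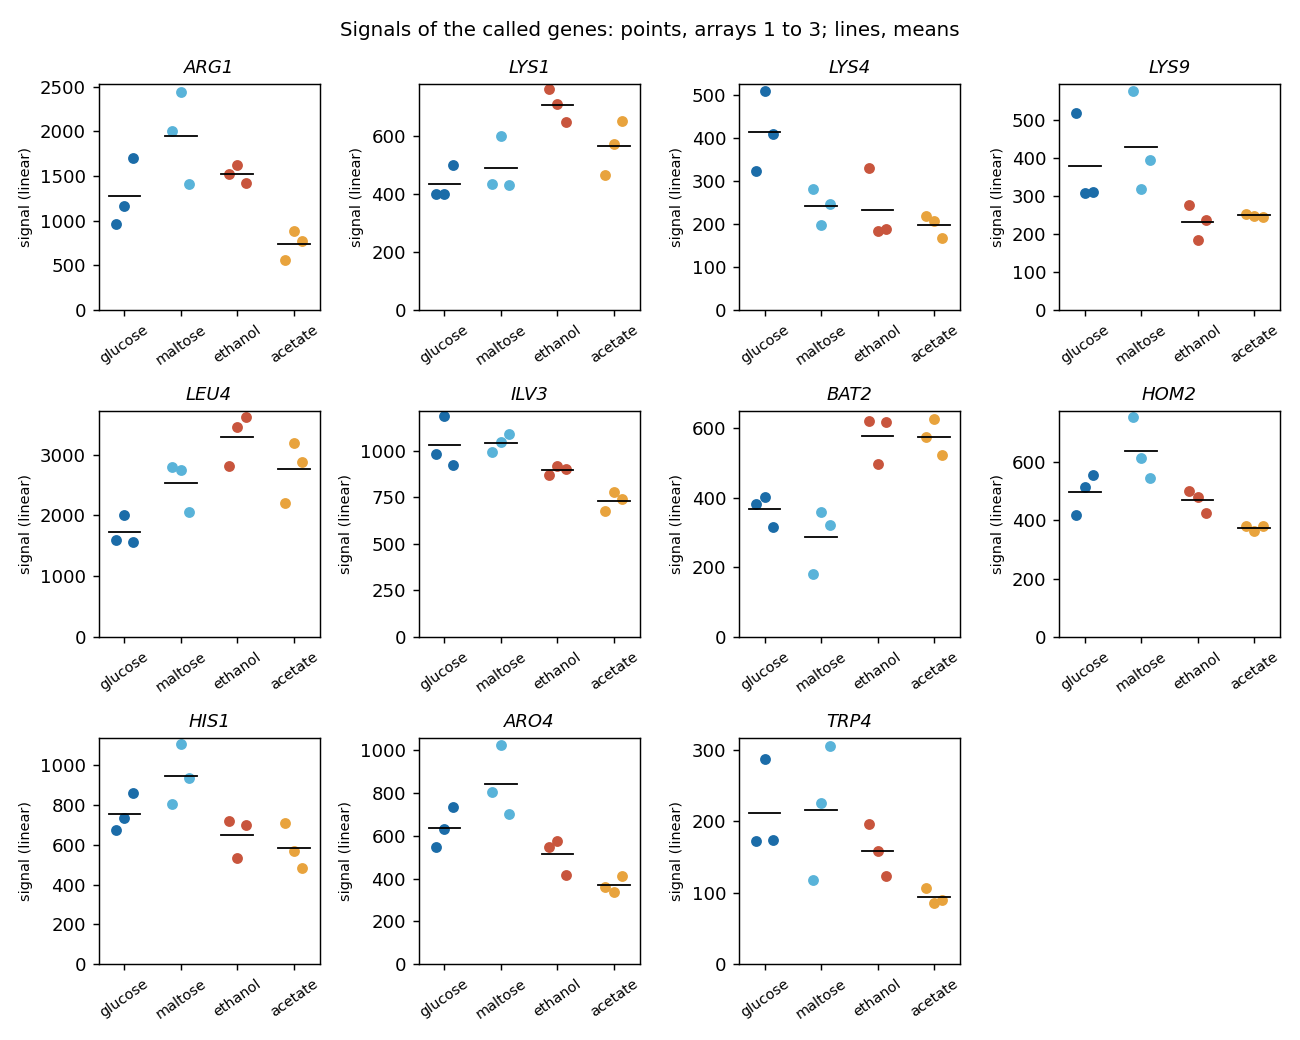
Linear signal (y axes from 0) on each array (points, arrays 1 to 3 of a source from left to right) with the mean of the source (lines), for the 11 genes called between C2 sources and sugars. BAT2 reaches 499 to 628 on the C2 arrays and 179.8 to 401 on the sugar arrays, and the acetate arrays of ARG1 lie between 561 and 879.5, below all others.

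Over all 4 sources, the moderated F test called 5 of the 52 genes, 9.62% against 8.19% of all probe sets. They were ARO4 (limma adjusted p = 0.00635), ARG1 (limma adjusted p = 0.00941), BAT2 (limma adjusted p = 0.0145), LEU4 (limma adjusted p = 0.0403) and LYS4 (limma adjusted p = 0.0495). They belong to the aromatic, arginine, branched-chain and lysine pathways, and no aspartate or serine gene was among them. The count was 3 without glucose array 1 or 3, ethanol array 2, or acetate array 2 or 3, and 9 without maltose array 3.

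The single sources were then compared in pairs, which share arrays with each other. Acetate against maltose gave the most calls, 9 of 52 or 17.3%, against 11.2% of all probe sets. BAT2 was the single gene higher, where 7.82% of all probe sets were, and 8 genes were lower, where 3.34% of all probe sets were: ARG1, CPA1, ILV3, HOM2, HIS1, HIS3, ARO4 and TRP4. CPA1, for the small subunit of the carbamoyl phosphate synthetase that feeds arginine, had a log2 change of −0.76 ± 0.21 (limma adjusted p = 0.0353). HIS3 (YOR202W), for imidazoleglycerol phosphate dehydratase, gave 207, 428 and 294 on glucose, 318, 334 and 318 on maltose, 344, 348 and 154 on ethanol, and 211, 139 and 119.7 on acetate. The acetate arrays lay below the maltose arrays, and ethanol array 3 fell among them. Its log2 change was −1.09 ± 0.32 for acetate against maltose (limma adjusted p = 0.0412), and another, dimmer HIS3 probe set gave 0.08 (limma adjusted p = 0.914). Without maltose array 2 the pair gave 5 calls, without acetate array 2 it gave 2, and without acetate array 3 it gave 3.

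Fewer genes were called in the other pairs. Acetate against glucose gave 2 of 52, LYS4 and ARO4, both lower (5.5% of all probe sets were called, 3.47% higher and 2.03% lower). Ethanol against maltose gave BAT2 higher and ARO4 lower (6.19% of all probe sets, 4.24% higher and 1.95% lower). Ethanol against glucose gave LEU4 alone, higher (2.55% of all probe sets, 1.66% higher and 0.892% lower). For maltose against glucose limma called 0 of 52 genes, where 0.209% of all probe sets were called (0.125% higher and 0.0836% lower) and 8 of the genes had an unadjusted p under 0.05. In this pair the median log2 difference was 0.10 over the genes and −0.20 over all probe sets, and maltose array 2, with its low median signal, was the highest of the 12 arrays in the median over the genes (0.27). Leaving out single arrays moved these counts between 0 and 6 for acetate against glucose, 0 and 3 for ethanol against maltose, and 0 and 2 for each of ethanol against glucose and maltose against glucose. For acetate against glucose, the count was 0 without glucose array 2 or 3 or acetate array 2 or 3, 5 without maltose array 1, and 6 without maltose array 3 or acetate array 1. For ethanol against glucose it was 0 without glucose array 1 or 3 or ethanol array 2 or 3, and 2 without maltose array 2 or ethanol array 1. For ethanol against maltose it was 0 without ethanol array 3 and 1 without glucose array 2 or 3, maltose array 1, ethanol array 2, or acetate array 2 or 3. For maltose against glucose it was 2 without maltose array 3. Across the 7 contrasts and the F test 13 of the 52 genes were called at least once, against 19.6% of all probe sets.

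Ethanol and acetate were compared directly, since both enter metabolism through acetyl-CoA. By limma 0 of the 52 genes passed, where 0.0279% of all probe sets did (0.0139% in each direction) and 12 of the genes had an unadjusted p under 0.05. The values still leaned to one side: 42 of the 52 genes were higher on ethanol, against 46.7% of all probe sets. The median log2 difference was 0.23 over the genes and −0.02 over all probe sets. In 16 of the 52 genes, 30.8%, all 3 ethanol arrays lay above all 3 acetate arrays, as in 5.73% of all probe sets. In 0 of the 52 all 3 lay below, against 5.11% of all probe sets. The actin 3′ to 5′ ratio was alike in arrays of the same number, 3.31 and 2.78 for array 1, 9.27 and 10.2 for array 2, and 14.0 and 13.1 for array 3. Deviations from the source means correlated between these arrays at 0.53, −0.08 and 0.43 for numbers 1 to 3. The fit treated all arrays as independent.

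The 16 genes came from 4 families. The pentose phosphate family held 7 of them (HIS4, ARO1, ARO3, ARO4, TRP2, TRP4 and TRP5), and all 13 of its genes were higher on ethanol, with a median log2 difference of 0.36. The oxoglutarate family held ARG1, ARG4 and ARG8, all from arginine synthesis, with 11 of 15 genes higher and a median of 0.19. The lysine and proline genes had 0 without overlap. ILV2, ILV3 and ILV6 came from the pyruvate family, in which 10 of 11 genes were higher, with a median of 0.24. HOM2, HOM3 and THR1 came from the aspartate family, in which 7 of 9 were higher, with a median of 0.17. In the serine genes 1 of 4 was higher and the median was −0.17.

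The largest differences were those of ARG1 and ILV6, a log2 value of 1.06 each, with standard errors of 0.25 and 0.35. ILV6 (YCL009C), the regulatory subunit that makes acetolactate synthase sensitive to valine, gave 1257, 1710.1 and 789.6 on ethanol and 564, 548 and 605 on acetate. Its ethanol arrays were spread more widely than its acetate arrays, and all stood higher. The catalytic subunit gene ILV2 gave 673, 681 and 547 on ethanol and 523, 533 and 546 on acetate, a narrow separation. ARO3 had 149, 148 and 127 on ethanol and 93.4, 95.9 and 89.3 on acetate. ARO1, which encodes a protein with 5 enzyme activities of the shikimate pathway, had 1016, 825 and 789.6 on ethanol and 599.6, 635 and 504 on acetate. Both aromatic genes were thus separated by source although neither passed the test, ARO1 at a limma adjusted p of 0.923 and ARO3 at 1.0.

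The other 10 genes were not higher on ethanol. LYS12, for homoisocitrate dehydrogenase, and HOM6 had the most negative log2 differences, −0.22 each with a standard error of 0.19. BAT1 was near 0, at −0.01. Over the alternative settings and with each array left out in turn, the median over the genes stayed between 0.184 and 0.386 and the number higher on ethanol between 37 and 48. A fit with array weights called 11 of the 52, where it called 6.68% of all probe sets (3.33% higher and 3.34% lower). The plot of ethanol against acetate shows the lean by family.

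**Figure D4:**
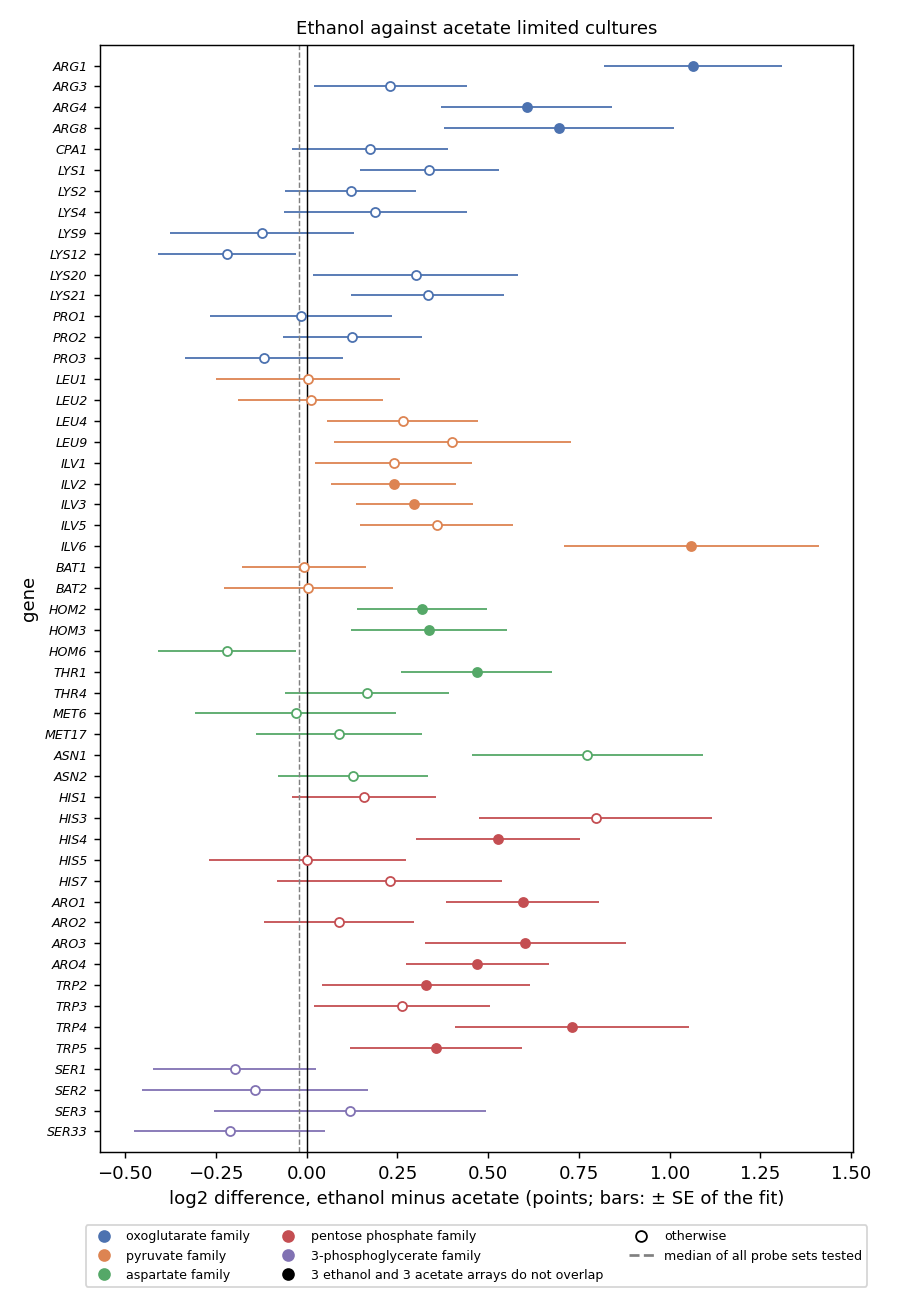
Log2 difference of 52 amino acid biosynthesis genes, ethanol minus acetate (points, with bars for the standard error of the fit; colours for precursor families; filled points where the 3 ethanol and the 3 acetate arrays do not overlap). There are 16 filled points, all to the right of 0, and all 13 genes of the pentose phosphate family are at or above 0.

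Some steps are encoded by a pair of genes for similar enzymes, and the balance of each pair was followed as the log2 ratio of the signals on each array. Signals of different probe sets cannot be set against each other as levels, so only the change of a ratio was read. BAT1, for the mitochondrial branched-chain aminotransferase, gave 487, 508 and 463 on glucose, 397, 474 and 548 on maltose, 536, 447 and 464 on ethanol, and 458, 478 and 518 on acetate. These values overlapped in all 4 sources, with a log2 change of 0.02 ± 0.12 for the C2 sources. The log2 ratio of BAT2 to BAT1 was 0.25 ± 0.15 (SD, n = 6) on the C2 arrays and −0.59 ± 0.32 (SD, n = 6) on the sugar arrays, and the groups did not overlap. The difference of 0.85 had an exact two-sided permutation p of 0.00216, the smallest that the 924 splits of the 12 arrays allow, or 0.0108 after adjustment over 5 pairs. With array 1 alone of ethanol and acetate the difference was 0.86, and its exact permutation p of 0.0357 was the smallest that the 28 splits of those 8 arrays allow, so that adjustment over 5 pairs left 0.179. BAT2 carried the difference, since BAT1 did not pass in any contrast.

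The other 4 pairs did not pass. The homocitrate synthase genes LYS20 and LYS21, for the first step of lysine synthesis, had log2 ratios of LYS21 to LYS20 from −1.66 to −1.05 over all arrays, with a difference of 0.11 between C2 sources and sugars (exact permutation test, adjusted p = 0.368). LYS20 gave 1770.0, 2024 and 2074 on glucose, 2647, 3657 and 1607 on maltose, 2178, 3153 and 2875 on ethanol, and 1614, 2148 and 3051 on acetate. LYS21 gave 811, 731 and 893 on glucose, 968, 1161 and 728 on maltose, 1050.0, 1201 and 1245 on ethanol, and 697, 1036 and 1088 on acetate. Both overlapped across sources, and as close copies the genes are open to cross-hybridisation. A probe set that the annotation assigns to both genes was called lower on acetate against maltose (log2 −0.81, limma adjusted p = 0.0477), which neither gene's own probe set was.

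LEU9, the second isopropylmalate synthase gene, was dim, with 59.3, 98.7 and 59.6 on glucose, 76.0, 47.4 and 75.6 on maltose, 101, 79.7 and 62.7 on ethanol, and 52.1, 65.4 and 64.2 on acetate. The sources overlapped, and the log2 ratio of LEU9 to LEU4 differed by −0.49 between C2 sources and sugars (exact permutation test, adjusted p = 0.173). This pair did pass after quantile normalization (−0.60, exact permutation test, adjusted p = 0.0162) and without maltose array 2 (−0.68, exact permutation test, adjusted p = 0.0325). The asparagine synthetase genes are ASN1 and ASN2. ASN1 gave 368, 489 and 439.5 on glucose, 612, 1394 and 532 on maltose, 912, 934 and 466 on ethanol, and 467, 423 and 402 on acetate. ASN2 gave 618, 528 and 626 on glucose, 671, 878 and 622 on maltose, 535, 746 and 441 on ethanol, and 511, 462 and 570.3 on acetate. For ASN1 the high arrays were maltose 2 and ethanol 1 and 2, and the ratio of ASN2 to ASN1 differed by −0.25 (exact permutation test, adjusted p = 0.368).

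SER3 and SER33 encode 3-phosphoglycerate dehydrogenase, which draws serine from glycolysis. SER3 gave 26.9, 35.1 and 38.4 on glucose, 28.5, 16.3 and 36.7 on maltose, 48.5, 33.6 and 46.5 on ethanol, and 31.9, 61.2 and 30.3 on acetate. SER33 gave 206, 165 and 173 on glucose, 161, 102 and 208 on maltose, 187, 136 and 186 on ethanol, and 161, 214 and 214 on acetate. Both overlapped across sources, and the log2 ratio of SER33 to SER3 differed by −0.34 (exact permutation test, adjusted p = 0.173), or by −0.48 without acetate array 3 (exact permutation test, adjusted p = 0.0325). The panels of isoenzyme ratios show the BAT pair apart from the rest.

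**Figure D5:**
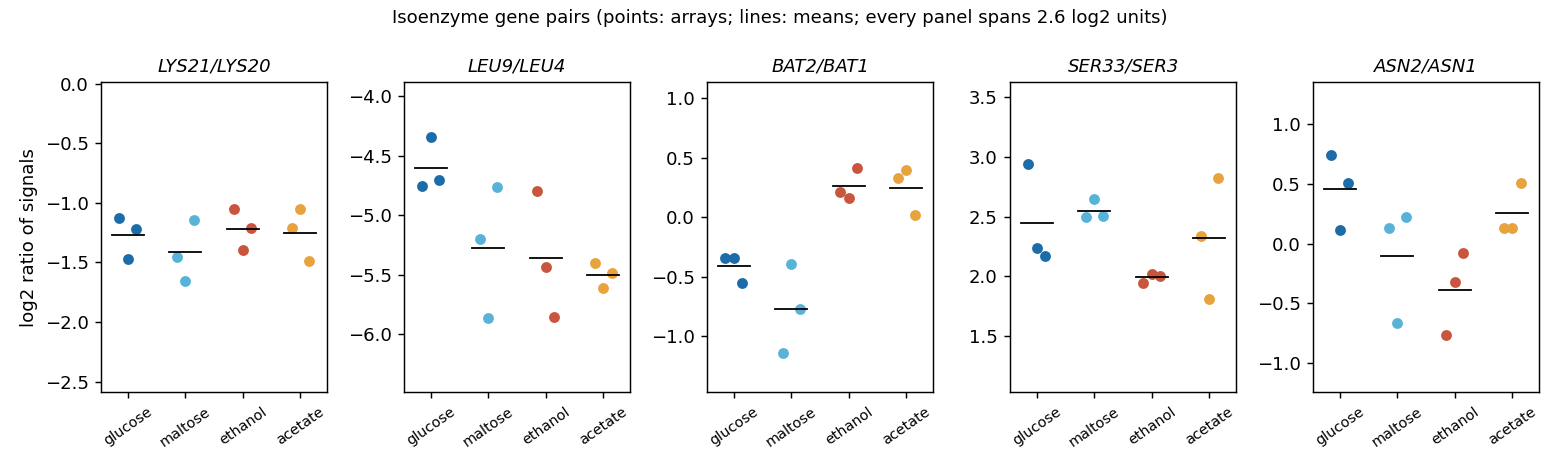
Log2 ratio of the signals of isoenzyme genes on each array (points, arrays 1 to 3 of a source) with the mean of the source (lines), in 5 panels of equal span. The BAT2 to BAT1 ratio averages 0.26 on ethanol and 0.25 on acetate, −0.41 on glucose and −0.77 on maltose, and the other panels overlap between C2 sources and sugars.

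Further genes of amino acid metabolism were taken from lists, read in the same fit. Over all probe sets 17.1% were called between C2 sources and sugars (11.4% higher and 5.69% lower). With the 3′ to 5′ covariate that share was 2.05%. The calls on these lists are from the fit without it, and how each depends on the covariate is not given. Of 36 other synthesis genes, 5 were higher and 2 lower on the C2 sources, 19.4% in all. GDH3, for an NADP-dependent glutamate dehydrogenase that makes glutamate from oxoglutarate and ammonium, rose 3.59-fold (log2 1.84 ± 0.15, limma adjusted p = 6.18e-07), from 234 to 522 on the sugar arrays to 994 to 1802 on the C2 arrays. AGX1, for the alanine to glyoxylate aminotransferase that makes glycine, rose 1.84-fold (limma adjusted p = 0.000989), and LYS5, whose product activates the Lys2 enzyme, rose 1.7-fold (limma adjusted p = 0.00411). The largest log2 change among the 52 genes was 0.86.

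Of 19 control genes limma called 0 between C2 sources and sugars. The Gcn4 gene itself had 1592 to 1876 on glucose, 2115 to 2717 on maltose, 2184 to 2725 on ethanol and 2128 to 2233 on acetate, with a log2 change of 0.20 ± 0.12 for the C2 sources (limma adjusted p = 0.281). Gcn4 is known to be controlled largely at translation, which arrays do not measure. PCL5, for a cyclin that marks Gcn4 for degradation and is itself a Gcn4 target, gave 257, 188 and 273 on ethanol and 63.0, 87.0 and 91.2 on acetate. These arrays did not overlap, as in 2 of the 19 control genes and 5.73% of all probe sets. The log2 difference of 1.57 ± 0.49 did not pass (limma adjusted p = 0.812). Gcn4 activity was not measured, and a link to the 16 genes above was not tested. PCL5 was called lower on acetate against maltose (log2 −1.69, limma adjusted p = 0.038).

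Of 16 breakdown genes, 3 were higher and 2 lower on the C2 sources, against the same 17.1% of all probe sets. GCV2, a subunit gene of the glycine cleavage system, had a log2 change of 1.16 (limma adjusted p = 2.61e-05), the dehydrogenase gene UGA2 of the aminobutyrate pathway −1.03 (limma adjusted p = 0.0251) and CAR2, the ornithine transaminase gene of arginine breakdown, −0.84 (limma adjusted p = 0.00901). Of 8 genes that supply or carry the precursors, 3 were higher and 0 lower, where 11.4% of all probe sets were higher: PYC1 for pyruvate carboxylase (log2 1.02, limma adjusted p = 0.0024), ODC1 for a mitochondrial carrier of oxoglutarate and oxoadipate (log2 0.80, limma adjusted p = 0.00962) and YHM2 for a carrier of citrate and oxoglutarate (log2 0.59, limma adjusted p = 0.00751). Their median log2 change was 0.40, beside −0.08 for the 52 synthesis genes and 0.12 for all probe sets.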

How the data were processed

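RNA abundance was measured on 12 arrays, 3 for each of 4 carbon sources, grouped by the source named in the labels. The authors deposited scaled intensities, 1 linear value for each probe set and array. Per the submitters' processing notes, MAS5 made the values on acetate, ethanol and maltose; its version and the software used for glucose are not given in the sources used here. In the labels the arrays are numbered, and p-values measure the spread between these arrays, which may in part be technical. Arrays have no read depth: their number limits the precision.

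The array holds 9335 probe sets, 60 of them controls that were not used. The platform annotation, with symbols updated through Entrez IDs to the RefSeq gene table, gave 1 gene for 6504 of the other 9275, several for 328 and none for 2443. Each array was rescaled to the same 2% trimmed mean, signals under 12 were raised to 12, and log2 was taken. Testing covered the 7176 probe sets that exceeded 12 on 3 or more arrays and left out 2099. A gene was read from its brightest probe set, so 52 of the 56 probe sets of the genes were used. The files name no genome build and coordinates are not given; promoter and protein sequences were not analysed here.

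A mean per carbon source was fitted with the limma package (version 3.58.1, R 4.3.3). Its lmFit and eBayes steps allowed an intensity trend, with all 4 sources sharing the spread. The code was also run on simulated arrays. These had independent noise, no 3′ to 5′ effect and planted changes larger than those of the genes between C2 sources and sugars. That run therefore does not bear on how the calls depend on RNA quality. Benjamini-Hochberg adjustment ran over all probe sets within a contrast, and an adjusted p under 0.05 is a call. Isoenzyme ratios were tested by exact two-sided permutation over arrays. Lists are described by counts and medians, with no set test. Per-array values are given for the 3 called genes with the largest change in each family, for genes called in the F test or in a pair at a log2 change of 1 or more, and for isoenzyme pairs; other values are shown as examples. At most 3 genes of each further list are named per contrast. The genes and lists were chosen with earlier results of these data known. Alternatives changed the floor, filter, normalization, covariates, arrays used and variance model.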

Additional observations from a re-analysis of the deposited data

How the results depend on the processing

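Counts of the 52 genes are given here in the order higher on C2 sources, lower on C2 sources, F test, ethanol against glucose, acetate against glucose, ethanol against maltose and acetate against maltose, which were 3, 8, 5, 1, 2, 2 and 9 in the report. With the 3′ to 5′ ratio as a covariate they were 0, 0, 1, 0, 0, 0 and 3. The share of all probe sets called in that fit was 0.557%, 0.864%, 2.23% and 3.72% for the pairs, in the same order. With array 1 alone of ethanol and acetate all 7 were 0. For the C2 contrast the share of all probe sets called was 17.1% in the report, 2.05% with the covariate and 2.4% with array 1 alone. Without glucose arrays 1 and 3 the counts were 1, 1, 3, 0, 0, 1 and 4. That fit called 6.66% of all probe sets for the C2 contrast, and 0.794%, 1.28%, 3.85% and 6.77% for the pairs. With array weights the counts were 7, 14, 32, 9, 22, 13 and 19, with 6 for maltose against glucose and 11 for ethanol against acetate. The same fit called 39.4% of all probe sets for the C2 contrast, 23.5% higher and 15.8% lower. For the pairs it called 15.5%, 36.2%, 21.4% and 36.2% in the order above. For maltose against glucose and ethanol against acetate it called 6.22% and 6.68%. From the lower count on, a floor of 50 gave 4, 2, 1, 1, 1 and 5, no filter 3, 2, 0, 1, 0 and 5, and no intensity trend 4, 3, 0, 1, 1 and 5. The code letter of the array descriptions as a covariate gave 1 lower, 2 in the F test, 1 for acetate against glucose, 0 for ethanol against maltose and 2 for acetate against maltose, and took the median of the pyruvate family to 0.135. That fit called 2.9% of all probe sets lower for the C2 contrast, and 4.14%, 1.6% and 2.77% for these pairs. Quantile normalization gave 2 for ethanol against glucose and 4 for acetate against glucose, and −0.597 for the ratio of LEU9 to LEU4, which then passed. A mean signal of at least 100 gave 2 for ethanol against glucose. The share of all probe sets called is not given for the floor, filter, trend, quantile or mean signal fits. Nor is it given for the F test in any of these alternatives. The causes of these changes in the counts were not tested.

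With each array left out in turn, the counts ran from 1 to 3, 2 to 10, 3 to 9, 0 to 2, 0 to 6, 0 to 3 and 2 to 9, from 0 to 2 for maltose against glucose and 0 for ethanol against acetate. The ratio differences ran from 0.735 to 0.896 for BAT2 to BAT1, from −0.678 to −0.374 for LEU9 to LEU4, from −0.477 to −0.256 for SER33 to SER3, from −0.415 to −0.106 for ASN2 to ASN1 and from 0.0472 to 0.160 for LYS21 to LYS20. The family medians ran from −0.343 to −0.179 (oxoglutarate), −0.0497 to 0.0714 (pyruvate), −0.164 to 0.124 (aspartate), −0.349 to −0.167 (pentose phosphate) and 0.0786 to 0.304 (3-phosphoglycerate), so those of pyruvate and aspartate crossed 0. The planned fit without maltose array 2 is among these.

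Over 25 calls on single genes and 576 alternatives, 327 kept the call, 248 lost it and 1 reversed in sign, that of HIS3 for acetate against maltose on its other probe set (0.0808). Same-numbered arrays had correlations of −0.21 to 0.53 in their deviations from the means of their sources, not all over 0.1, so the numbers were not taken to pair the arrays; with the replicate number as a block the counts were again 3, 8, 5, 1, 2, 2 and 9 and the ratio of BAT2 to BAT1 differed by 0.846. An alternative chosen after seeing the data, quantile normalization, gave 18 in place of 16 genes with all ethanol arrays above all acetate arrays. The isoenzyme test could not take covariates, array weights or a variance trend, and these were not run for it. The precision is limited by 3 arrays a source, and dim genes had wider errors for the C2 contrast, such as SER3 with a standard error of 0.26 against 0.11 for ILV3.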

Other observations

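The further lists also held genes whose ethanol and acetate arrays did not overlap. Among 36 other synthesis genes, 7 had all 3 ethanol arrays above all 3 acetate arrays and 3 had them below, against 5.73% and 5.11% of all probe sets. ARG7, for the mitochondrial ornithine acetyltransferase of arginine synthesis, was among the 7, with 392, 239.9 and 331 on ethanol and 147, 212 and 148 on acetate. It was called lower on acetate against maltose (log2 −1.12, limma adjusted p = 0.00553), a pair in which 4 genes of that list were higher and 2 lower. The counts of genes with ethanol above acetate were 2 of 19 control genes, 3 of 16 breakdown genes and 2 of 8 genes that supply or carry precursors. CAR2 of arginine breakdown was among the 3, with 332, 558 and 375 on ethanol and 225, 172 and 219 on acetate, and it was also lower on acetate against maltose (log2 −1.32, limma adjusted p = 0.00717). ARG1, ARG7 and CAR2 each had all 3 acetate arrays below all other arrays. So did ARG8 and, outside arginine metabolism, ILV3, HOM2, ARO4 and TRP4. The share of all probe sets with this pattern was not counted. BAS1, for an activator of histidine and adenine synthesis genes, was dim throughout, and was called lower on acetate against glucose (log2 −1.13, limma adjusted p = 0.0433).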
